A study of Homo sapiens with 6 samples.

Results

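The osteoblast lineage genes examined here are RUNX2, SP7, ALPL, SPP1, IBSP, BGLAP, SPARC, DLX5 and TNFRSF11B. They were chosen by name because the cells come from a bone tumour, and with earlier results of these data known. All 9 were found, each in 1 row, among the 57820 genes of the deposited tables. The samples are 3 WT and 3 ARID1A-KO samples of AID-DIvA cells, numbered 3 to 5 in each genotype. AID-DIvA is a U2OS osteosarcoma derivative with an integrated vector for the AsiSI nuclease, which both genotypes carry and which stayed uninduced because the cells were untreated. In ARID1A-KO cells, a subunit of the SWI/SNF chromatin remodeller had been disrupted with Cas9 and guide RNAs against its gene, and clones were then established. Since neither the labels nor the methods tie a sample to a clone or a culture, p-values measure only the spread between these samples, and ARID1A loss and a difference between clones cannot be told apart.

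Osteoblasts arise from mesenchymal progenitors and build bone. RUNX2 is the transcription factor that commits cells to this lineage, DLX5 is a homeodomain factor that acts with it, and SP7 (osterix) is needed for the next step. The committed cell makes alkaline phosphatase (ALPL), then the matrix proteins osteonectin (SPARC), osteopontin (SPP1), bone sialoprotein (IBSP) and osteocalcin (BGLAP), the last a marker of mature osteoblasts. Osteoprotegerin (TNFRSF11B) is a secreted decoy receptor that restrains the formation of bone-resorbing osteoclasts.

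In ARID1A-KO cells, ALPL, SPP1, TNFRSF11B and SPARC were lower than in WT cells, by 5.46-, 2.74-, 2.32- and 1.85-fold. RUNX2 was expressed in both genotypes at overlapping levels. SP7, IBSP, BGLAP and DLX5 had between 0 and 12 counts per sample in either genotype. The labelled osteosarcoma line thus expressed 5 of the 9 lineage genes at 1 TPM or more in every sample, and the other 4, SP7 and osteocalcin among them, at less than 1 TPM in all samples.

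Reverse-stranded counts on genes came to between 54512105 and 84088708 per sample, so that 3 counts correspond to at most 0.0550 CPM (counts per 1000000 counts of the library). ARID1A itself had 166, 178 and 177 CPM in WT replicates 3, 4 and 5 and 25.1, 27.5 and 25.2 CPM in ARID1A-KO replicates 3, 4 and 5, which is 6.69-fold lower. Samples of the same genotype correlated at 0.992 or higher in log2 CPM and samples of different genotypes at 0.973 or lower. On the second principal component, with 11.1% of the variance, WT replicate 4 and ARID1A-KO replicate 5 lay at opposite ends. The differences below were tested with edgeR's quasi-likelihood test on all 19599 genes with enough counts, and a gene was called at a Benjamini-Hochberg adjusted p under 0.05. In bulk RNA, fewer cells with a transcript and less of it per cell cannot be told apart.

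Levels were compared between genes in TPM (transcripts per 1000000 transcripts), which takes exon length into account. SPARC was the most abundant member, at 515 ± 41.6 TPM in WT cells and 277 ± 9.28 TPM (SD, n = 3 for both) with ARID1A knocked out. In WT cells it was followed by SPP1 (58.0 ± 19.6), TNFRSF11B (29.1 ± 11.0), ALPL (10.5 ± 3.63) and RUNX2 (6.0 ± 0.63). Neighbours in this order overlapped between SPP1 and TNFRSF11B and between ALPL and RUNX2. In ARID1A-KO cells, RUNX2 with 5.86 ± 1.74 TPM stood above ALPL with 1.92 ± 0.36, and the samples of these genes did not overlap. The BGLAP level was 0.36 ± 0.13 TPM in WT and 0.36 ± 0.069 TPM in ARID1A-KO cells, and IBSP, SP7 and DLX5 reached at most 0.145 TPM in any sample. The 9 genes summed to between 585 and 637 TPM in WT and between 315 and 321 TPM in ARID1A-KO samples, and SPARC made up most of this sum.

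**Figure D1:**
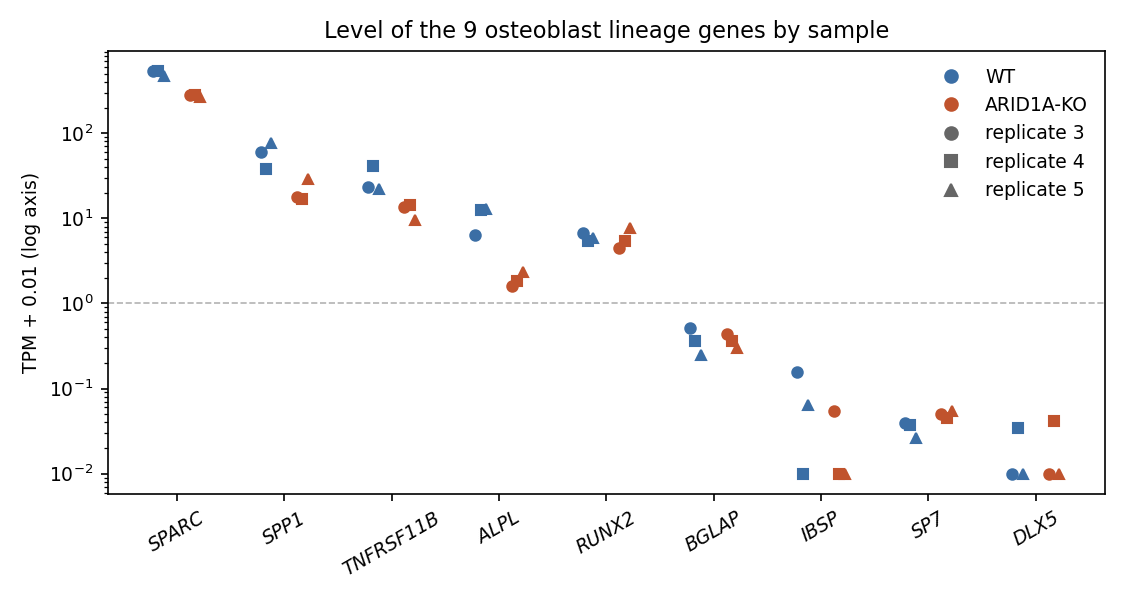
TPM of each osteoblast lineage gene (TPM + 0.01 on a log axis) in the 3 WT and 3 ARID1A-KO samples, 1 point per sample with the replicate number as its shape, the dashed line marking 1 TPM. SPARC, SPP1, TNFRSF11B and ALPL have all ARID1A-KO points under the lowest WT point, RUNX2 overlaps, and BGLAP, IBSP, SP7 and DLX5 lie under 1 TPM.

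RUNX2 (ENSG00000124813.16) lies on chromosome 6 from 45295894 to 45632086 on the plus strand, in the GRCh37 coordinates of the tables. It is transcribed from an upstream and a downstream promoter, which counts per gene cannot separate. The 250 bases before both RefSeq starts are shown, because RUNX2 binds its own upstream promoter and the core letters of its binding motif, TGTGGT or ACCACA on the other strand, are in capitals. The upstream one is chr6:45328080-45328329 and the downstream one chr6:45422025-45422274, both on the plus strand of GRCh38.p14.
RUNX2 upstream promoter: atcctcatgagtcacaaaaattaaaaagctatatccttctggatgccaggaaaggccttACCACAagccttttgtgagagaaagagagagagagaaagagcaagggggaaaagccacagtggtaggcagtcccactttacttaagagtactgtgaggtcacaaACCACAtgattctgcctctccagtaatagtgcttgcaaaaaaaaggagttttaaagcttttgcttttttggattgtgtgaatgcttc
RUNX2 downstream promoter: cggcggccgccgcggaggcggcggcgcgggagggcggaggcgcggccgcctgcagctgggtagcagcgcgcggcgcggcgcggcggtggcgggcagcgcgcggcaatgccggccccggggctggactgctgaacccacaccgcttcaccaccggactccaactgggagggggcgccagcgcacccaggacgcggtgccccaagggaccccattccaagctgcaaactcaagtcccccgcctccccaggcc
The upstream promoter held 2 matches, which begin 191 and 87 bases before the start, and the downstream promoter held 0. Of the 35116 RefSeq promoters of this length, 11.0% held at least 1 match.

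The RUNX2 level was 16.4, 13.6 and 14.8 CPM in WT replicates 3, 4 and 5 and 11.5, 13.4 and 18.8 CPM in ARID1A-KO replicates 3, 4 and 5. ARID1A-KO replicate 5 was the highest of all 6 samples and ARID1A-KO replicate 3 the lowest, so the genotypes overlapped. The log2 fold change in ARID1A-KO cells was -0.033 (SE 0.17, 95% interval -0.41 to 0.34), with an adjusted p of 0.899 by edgeR's quasi-likelihood test. Without ARID1A-KO replicate 5 it was -0.26 (adjusted p = 0.110 in the same test), and the TPM of the other samples did not overlap.

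The other transcription factors of the set were barely detected. SP7 (ENSG00000170374.4, chromosome 12 from 53720362 to 53739099, minus strand) had 2, 2 and 1 counts in WT and 3, 2 and 4 in ARID1A-KO replicates 3, 4 and 5. DLX5 (ENSG00000105880.4, chromosome 7 from 96649704 to 96654409, minus strand) had 1 count in WT replicate 4, 1 in ARID1A-KO replicate 4 and 0 in the other samples. Its neighbour DLX6, a paralog, had 0 counts in all 6 samples, and DLX6-AS1 had 1 count in all. Neither SP7 nor DLX5 entered the fit, and with no filter on counts edgeR's quasi-likelihood test gave them an adjusted p of 0.649 and 0.980. SP7 did not overlap in TPM, but these values rest on 4 counts or fewer per sample.

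ALPL, the enzyme that frees phosphate for mineral and breaks down the inhibitor pyrophosphate, lies on chromosome 1 from 21835858 to 21904905 on the plus strand (ENSG00000162551.9). Its CPM was 5.74, 11.5 and 11.8 in WT replicates 3, 4 and 5 and 1.54, 1.69 and 2.06 in ARID1A-KO replicates 3, 4 and 5. WT replicate 3 was well under the other WT samples and still above all ARID1A-KO samples. ALPL had the log2 fold change of largest size among the tested members, -2.45 (SE 0.27, adjusted p = 0.000148 by edgeR's quasi-likelihood test). Without WT replicate 3 the value was -2.73, and leaving out single samples gave values from -2.73 to -2.28.

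SPP1, a phosphorylated matrix protein that binds integrins and restrains mineral growth, lies on chromosome 4 from 88896819 to 88904562 on the plus strand (ENSG00000118785.9). The SPP1 values were 41.0, 26.4 and 54.0 CPM in WT replicates 3, 4 and 5, and 12.8, 11.8 and 19.5 CPM in ARID1A-KO replicates 3, 4 and 5. The WT samples differed by 2.04-fold between the highest and the lowest in TPM, and WT replicate 4, the lowest, still lay above all ARID1A-KO samples. The log2 fold change came to -1.45 (SE 0.26, adjusted p = 0.00222 by edgeR's quasi-likelihood test), and with each sample left out it ranged from -1.71 to -1.19.

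SPARC, a collagen-binding glycoprotein of bone matrix, lies on chromosome 5 from 151040657 to 151066726 on the minus strand (ENSG00000113140.6). It had 784, 795 and 692 CPM in WT replicates 3, 4 and 5, against 433, 416 and 380 CPM in ARID1A-KO replicates 3, 4 and 5. Both genotypes were tight, and the lowest WT sample stood far above the highest ARID1A-KO sample. The log2 fold change of -0.89 was the smallest in size of the 4 falls and had the smallest error (SE 0.08, adjusted p = 4.49e-05 by edgeR's quasi-likelihood test).

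The other matrix proteins of the set had at most 12 counts in any sample. IBSP, which nucleates mineral, lies near SPP1 on chromosome 4 from 88720733 to 88733074 (ENSG00000029559.5) and had 3, 0 and 1 counts in WT and 1, 0 and 0 in ARID1A-KO replicates 3, 4 and 5. BGLAP (ENSG00000242252.1, chromosome 1 from 156211753 to 156213112, plus strand) had 12, 9 and 5 counts in WT and 11, 7 and 9 in ARID1A-KO replicates 3, 4 and 5. It overlaps PMF1 and the readthrough gene PMF1-BGLAP on the same strand, so reads over shared exons cannot be given to it with certainty. PMF1 had between 593 and 1021 counts, and PMF1-BGLAP between 0 and 1. With no filter on counts, edgeR's quasi-likelihood test gave an adjusted p of 0.508 for IBSP and 0.980 for BGLAP.

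TNFRSF11B lies on chromosome 8 from 119935796 to 119964439 on the minus strand (ENSG00000164761.4). In CPM it had 20.1, 36.1 and 19.1 in WT replicates 3, 4 and 5 and 12.2, 12.3 and 7.98 in ARID1A-KO replicates 3, 4 and 5. WT replicate 4 was the highest and ARID1A-KO replicate 5 the lowest, the same samples that stood apart on the second principal component. The log2 fold change was -1.22 (SE 0.25, adjusted p = 0.00515 by edgeR's quasi-likelihood test). It was -0.86 without WT replicate 4 and -1.03 without ARID1A-KO replicate 5, with adjusted p-values of 0.00425 and 0.0131 in the same test. Of its ligands, TNFSF11 (RANKL, the signal that drives osteoclast formation) had between 0 and 3 counts per sample and was not tested.

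**Figure D2:**
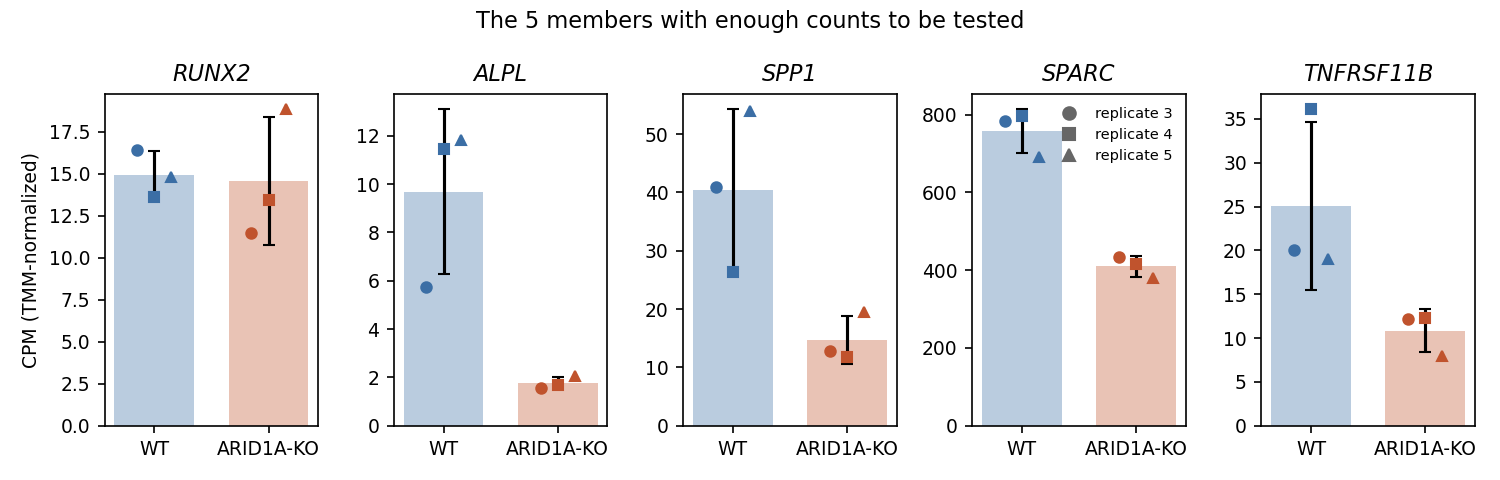
TMM-normalized CPM of the 5 members with enough counts to be tested, as the mean (bar), SD (line, n = 3) and each sample (points, shaped by replicate number) in WT and ARID1A-KO cells. For ALPL, SPP1, SPARC and TNFRSF11B the ARID1A-KO points lie under all WT points, whereas RUNX2 overlaps, with ARID1A-KO replicate 5 at 18.8 CPM the highest.

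Of the 9 members, then, 4 were called lower, 0 were called higher, 1 was tested and not called, and 4 had too few counts to be tested. With an unadjusted p under 0.05 in edgeR the number of higher members was 0 as well, and with DESeq2 it was 0. Among all genes tested 36.2% were called, 18.4% lower and 17.8% higher, and 5.92% were called lower by 2-fold or more, as were ALPL, SPP1 and TNFRSF11B. The CPM of the genotypes did not overlap for the same 4 members that were called, where 49.5% of all genes tested did not overlap and 24.8% did not overlap and were lower. In TPM, the exact permutation test over samples gave these 4 genes p = 0.1 each (two-sided), which is the lower limit for groups of 3.

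**Figure D3:**
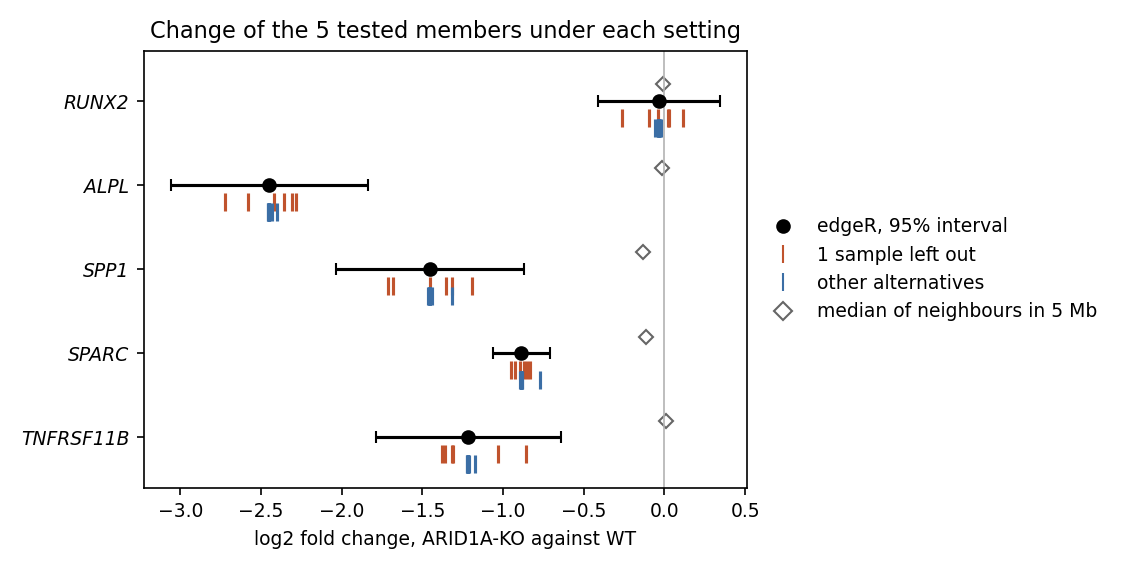
Log2 fold change of the 5 tested members in ARID1A-KO against WT cells, with its 95% interval (black), the values with 1 sample left out (orange ticks), those under the other alternatives (blue ticks) and the median of the tested genes within 5 Mb (diamonds). ALPL, SPP1, SPARC and TNFRSF11B stay under 0 under each setting, and RUNX2 lies on both sides of it, from -0.26 to 0.12.

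The genes around the members were examined, because in some regions the neighbours moved together. The other tested genes within 5 Mb of SPP1 had a median log2 fold change of -0.14 (45 genes, 10 called lower and 4 higher). The median was -0.12 for SPARC (62 genes, 19 lower and 3 higher) and -0.017 for ALPL (120 genes, 23 lower and 22 higher). For TNFRSF11B it was 0.0068 (41 genes, 11 lower and 6 higher). Relative to these medians SPP1 was at -1.32 and SPARC at -0.77, and all 4 calls held. The nearest tested genes on both sides of TNFRSF11B were also called lower, SAMD12 with a log2 fold change of -1.39 and MAL2, a membrane trafficking protein of epithelia, with -1.44. Their part in the fall of TNFRSF11B was not tested. Beside SPARC, the protocadherin FAT2 was at -1.15, a call that was lost without WT replicate 4, ARID1A-KO replicate 4 or ARID1A-KO replicate 5 (adjusted p = 0.0782, 0.0733 and 0.0513 in edgeR) and with DESeq2 (adjusted p = 0.0751), and ATOX1 was at -0.12 and not called. In counts without regard to strand, FAT2 was at -0.41 (adjusted p = 0.181 in edgeR). The neighbours of SPP1, the polycystin gene PKD2 and the pseudogene HSP90AB3P, were at -0.0025 and -0.035. Beside ALPL, RAP1GAP was called higher at 0.44 and NBPF3 was not called. Beside RUNX2, the chloride channel gene CLIC5 was at -2.26 (adjusted p = 0.0479 in edgeR), a call that was lost without WT replicate 3, WT replicate 5, ARID1A-KO replicate 3 or ARID1A-KO replicate 4 (adjusted p = 0.139, 0.15, 0.101 and 0.120). The CLIC5 value itself ranged from -3.94 without ARID1A-KO replicate 5 to -1.72 without ARID1A-KO replicate 3, and relative to the median of its neighbours the adjusted p was 0.0537 in edgeR. In all, 4 of the 17 nearest tested genes were called lower and 2 higher. Among all genes tested, 18.4% were called lower and 17.8% higher.

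SPP1 and IBSP belong to a cluster of mineral-binding matrix genes on chromosome 4 with DSPP, DMP1 and MEPE, genes of dentin and of osteocytes, the cells embedded in bone. DMP1 was called higher, with 7, 7 and 6 counts in WT and 18, 12 and 33 in ARID1A-KO replicates 3, 4 and 5 and a log2 fold change of 1.5 (adjusted p = 0.00833 with edgeR, 0.0504 with DESeq2). DSPP had between 0 and 3 counts and MEPE between 0 and 3, and neither was tested. Of this cluster, SPP1 was called lower, and DMP1 was called higher at a low level and by edgeR alone.

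Of the members that fell, SPP1, SPARC and ALPL have promoters shown for their letters, and TNFRSF11B has none shown. TGTGGT or ACCACA is again in capitals. The promoters are the 250 bases before a RefSeq start in GRCh38.p14. They are chr4:87975464-87975713 on the plus strand for SPP1, chr5:151686916-151687165 on the minus strand for SPARC and, for ALPL, which has 3 starts in the table, chr1:21509173-21509422 on the plus strand.
SPP1 promoter: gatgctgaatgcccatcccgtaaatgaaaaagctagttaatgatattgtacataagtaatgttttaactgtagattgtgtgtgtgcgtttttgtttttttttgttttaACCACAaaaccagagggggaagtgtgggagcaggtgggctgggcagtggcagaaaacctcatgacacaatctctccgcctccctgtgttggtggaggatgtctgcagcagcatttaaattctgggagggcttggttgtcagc
SPARC promoter: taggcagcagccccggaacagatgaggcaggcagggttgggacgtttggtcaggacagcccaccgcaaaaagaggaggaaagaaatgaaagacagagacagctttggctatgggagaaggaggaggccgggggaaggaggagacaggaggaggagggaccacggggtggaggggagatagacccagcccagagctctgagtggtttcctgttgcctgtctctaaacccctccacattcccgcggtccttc
ALPL promoter: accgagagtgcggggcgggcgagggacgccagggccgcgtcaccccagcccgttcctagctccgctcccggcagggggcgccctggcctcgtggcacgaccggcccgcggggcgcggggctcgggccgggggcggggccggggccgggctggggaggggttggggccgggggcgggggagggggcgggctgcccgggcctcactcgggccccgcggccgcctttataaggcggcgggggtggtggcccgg
SPP1 held 1 match, beginning 142 bases before the start. SPARC held 0 and the 3 ALPL promoters held 0. Among the members that were near 0, the BGLAP promoter held 1 match, at 163 bases, and the IBSP promoter 0. The GC box, GGGCGG or CCGCCC on the other strand, was found 4 times in the ALPL promoter shown and 0 times in the other ALPL promoters. It was found 2 times in BGLAP and 1 time in the downstream RUNX2 promoter, and 42.6% of all promoters held it at least 1 time. G and C made up 83.6% of the ALPL promoter shown, and 60.4% and 49.6% of the other ALPL promoters. They made up 44.8% of the SPP1 promoter and 59.2% of the SPARC promoter. Of the 9 members, 6 were matched to RefSeq promoters that are used here, and DLX5, SP7 and TNFRSF11B were not.

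Other genes of bone formation were read from the same fit in 5 lists of 75 genes, of which 59 were tested. Of these, 18 were called higher and 19 lower, with a median log2 fold change of -0.079 against 0.0066 over all genes tested, of which 17.8% were called higher and 18.4% lower. The wider set thus held called genes in both directions.

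The list of transcription factors around RUNX2 and SP7 held 13 genes, of which 11 were tested, 5 called higher and 2 lower, with a median log2 fold change of 0.23. CBFB, the partner that strengthens DNA binding of RUNX proteins, was not called, at 78.7 ± 2.64 CPM (WT) and 73.5 ± 0.63 CPM (ARID1A-KO). Its log2 fold change was -0.099, where the 134 tested genes within 5 Mb had a median of 0.55. Relative to the medians of their neighbours within 5 Mb, 5 genes of the list were called higher and 3 lower. TWIST2, which blocks RUNX2 in early progenitors, rose by 0.83 on the log2 scale, between 1.43 ± 0.071 and 2.54 ± 0.58 CPM, and the homeobox gene MSX1 rose by 0.68. FOSL2, an AP-1 factor needed for osteoblast maturation, fell from 206 ± 15.8 to 128 ± 5.60 CPM (log2 fold change -0.69). The zinc finger gene ZNF521 had -0.68, and RUNX3 and DLX3 were also called higher.

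Among 21 signals and receptors, 19 were tested, 6 called higher and 4 lower, with a median of 0.20. DKK1, a secreted inhibitor of Wnt signalling and of bone formation, rose from 0.60 ± 0.21 to 3.46 ± 0.79 CPM (log2 fold change 2.50, SE 0.27). The Wnt coreceptor LRP6 fell from 224 ± 29.5 to 127 ± 5.46 CPM, by 0.82 on the log2 scale, and LRP5 was also called lower. BMP7, a bone morphogenetic protein, rose by 0.98 and its signal transducer SMAD1 by 0.75, the latter where the 36 tested genes within 5 Mb lay around -0.54. Relative to these neighbours SMAD1 was at 1.29. SMAD5, also a transducer of BMP signals, was called lower, from 80.3 ± 3.77 to 67.1 ± 3.49 CPM (log2 fold change -0.26). The BMP antagonist NOG was higher, from 52.4 ± 3.31 to 84.4 ± 17.4 CPM, whereas BMP2 was lower. PTH1R, the receptor for parathyroid hormone that marks osteoblasts, had too few counts to be tested.

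The list of matrix and collagen-processing genes had 18 members, 13 of them tested, 6 called lower and 3 higher, with a median of -0.26. PLOD2, which hydroxylates collagen lysines for crosslinks, fell from 171 ± 6.38 to 36.7 ± 4.10 CPM (log2 fold change -2.22, SE 0.09), and the crosslinking enzyme LOX from 75.1 ± 10.2 to 25.0 ± 8.06 CPM (log2 fold change -1.58, SE 0.20). The tested genes within 5 Mb of PLOD2 had a median of -0.38, and without it PLOD2 was at -1.83. CDH11, the osteoblast cadherin, had -0.57, in a region of 106 tested genes whose median was 0.52, and -1.09 relative to it. The proteoglycan BGN rose from 1.32 ± 0.49 to 3.74 ± 0.39 CPM (log2 fold change 1.51). FKBP10, from 182 to 243 CPM on average, and POSTN, at a low level, were also called higher. COL1A1, a chain of the main collagen of bone, was lower, at 322 ± 61.3 CPM against 447 ± 15.8 CPM in WT cells. Its partner chain COL1A2 had between 5 and 20 counts per sample and was tested but not called.

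Of 13 mineralization genes, 9 were tested, 4 called higher and 3 lower, with a median of 0.072. The phosphate transporter SLC20A1 was higher, from 263 ± 16.7 to 374 ± 6.90 CPM (log2 fold change 0.51), and SLC20A2 lower, at -0.32, a call that was lost without WT replicate 3 (adjusted p = 0.0537 in edgeR). Without that sample 4 genes of the list were called, and with DESeq2 also 4, 1 higher and 3 lower. PHEX, an osteocyte peptidase, and MGP, an inhibitor of calcification, were called lower, and PHOSPHO1 and SMPD3 higher, all at a mean log2 CPM under 1. The 143 tested genes within 5 Mb of SMPD3 had a median of 0.55.

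Another list held 10 genes of osteoclast control other than TNFRSF11B, receptors for RANKL among them. Of these, 7 were tested, 4 called lower and 0 higher, with a median of -0.57. With an unadjusted p under 0.05 in edgeR 0 were higher, as with DESeq2. WNT5A, a Wnt ligand that promotes osteoclast formation, fell from 14.8 ± 1.86 to 7.30 ± 0.94 CPM (log2 fold change -1.01). LGR4, another receptor for RANKL, and SEMA3A, which protects bone, both had a log2 fold change of -0.57. The cytokine IL6 was lower at a low level, from 1.49 ± 0.18 to 0.34 ± 0.16 CPM. CSF1, the growth factor of osteoclast precursors, was not called, with 16.5 ± 2.09 and 12.9 ± 3.45 CPM.

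**Figure D4:**
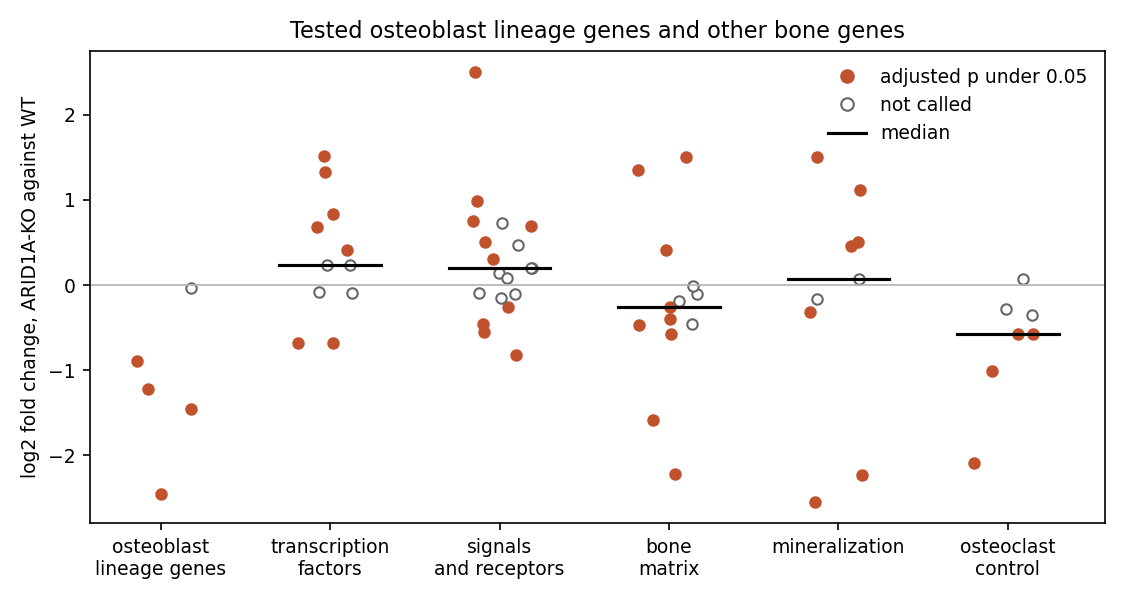
Log2 fold change in ARID1A-KO against WT cells of each tested osteoblast lineage gene and each tested gene of 5 other lists of bone genes, 1 point per gene, filled where the adjusted p was under 0.05, with the median of each other list as a line. The called osteoblast lineage genes all lie under 0, whereas the other lists except osteoclast control hold called genes on both sides.

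Markers of other cell types were low, with exceptions. Of 8 osteoclast markers, 6 stayed under 1 TPM in all samples, and the list summed to between 5.97 and 15.3 TPM in WT and 10.2 and 16.8 TPM in ARID1A-KO samples, with the gelatinase MMP9 the highest on average. CTSK and OSCAR were called higher, OSCAR at only 0.31 TPM in WT and 0.77 TPM in ARID1A-KO cells on average. The chondrocyte list summed to between 66.4 and 75.8 TPM in WT and 78.4 and 97.6 TPM in ARID1A-KO samples, carried by SOX9, a factor of cartilage progenitors, with 54.8 and 72.1 TPM on average. SOX9 and ACAN were called higher, ACAN at only 0.26 TPM in WT and 0.50 TPM in ARID1A-KO cells on average. The cartilage genes COL2A1 and COMP stayed near 0. Of the adipocyte list PPARG led, with 21.0 and 16.8 TPM, and 0 of 3 tested genes were called, 0 with an unadjusted p under 0.05 in edgeR and 0 with DESeq2. The muscle list summed to at most 4.13 TPM, the epithelial list to at most 14.9 TPM, led by EPCAM, and the blood cell list to at most 1.78 TPM, led by PTPRC, which was called lower. Of the muscle markers MYOD1 was called higher and ACTA1 lower, and of the epithelial ones EPCAM higher and CDH1 lower. MYOD1 averaged only 0.061 CPM in WT and 0.25 CPM in ARID1A-KO cells, and ACTA1 was not called lower with DESeq2. The part of these markers in the falls of ALPL, SPP1, SPARC and TNFRSF11B was not tested.

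The gene with the pattern most like that of each tested member over the 6 samples was sought among the 13216 other genes of mean log2 CPM over 1, by Pearson's r of log2 CPM. It was RNASET2 for RUNX2 (r = 0.979), FEZ1 for ALPL (r = 0.999), UROS for SPP1 (r = 0.999), MAGEA3 for SPARC (r = 0.999) and FNDC3A for TNFRSF11B (r = 0.998). Only 19 genes passed an r of 0.95 with RUNX2, whereas 1020 did with SPARC, since the 6 points of a gene that differs between genotypes fall into 2 clusters.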

How the data were processed

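RNA-seq covered 3 WT and 3 ARID1A-KO samples, grouped by the genotype label. The authors used the Roddy workflow, in which STAR placed paired reads on GRCh37, and counted reads per gene with featureCounts (versions not given in the sources used here). The labels name polyA RNA and a total RNA kit. The authors deposited raw counts per gene, unstranded, forward and reverse-stranded, and TPM values. Of these, the deposited TPM that sum to 1000000 over all genes of a sample were used, and FPKM was not used.

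Forward counts came to between 5.83% and 6.15% of reverse-stranded counts, so the latter were used. They were filtered with filterByExpr, scaled by TMM and tested with glmQLFit and glmQLFTest of edgeR 4.0.16 (R 4.3.3) without covariates, after a check on simulated data. A standard error is the log2 fold change over the root of the F statistic. TPM was compared with exact permutation tests in SciPy 1.17.1. Pairs within a genotype differed by more than sampling noise (chi-square per gene 7.57 to 32.9). CPM is counts per 1000000 of the TMM-scaled library. Floors of 3 counts cover counting error only. The intervals come from the quasi-likelihood fit and include its estimate of the spread between samples.

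The members and lists were chosen with earlier results of these data known. Named are all members, ARID1A, the nearest tested genes and those that overlap or share a cluster, up to 4 called genes of a list with the largest change at a mean log2 CPM over 1, the top marker of each other cell type and the most similar genes. Genes named beyond this rule were chosen after their values were seen. Alternatives were unstranded counts and TPM, RLE, DESeq2 1.42.0, a minimum of 10 counts in all samples, no filter, a block for the replicate number, an adjusted p under 0.01, an offset by the neighbours' median within 5 Mb, log2(TPM + 1) and log2(TPM + 0.1), a TPM minimum of 1, and each sample left out.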

Additional observations from a re-analysis of the deposited data

How the results depend on the processing

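The 4 falls among the members, of ALPL, SPP1, SPARC and TNFRSF11B, kept their direction and their call under all 14 alternatives run on counts, and RUNX2 was called under 0 of them in edgeR or DESeq2. The number of members called was 4 under each. Of all genes, 7099 were called in the reported fit and 4414 at an adjusted p under 0.01, a stricter threshold, and with each sample left out between 5285 and 7050. The other bone genes called numbered 37, and between 27 and 40 over the alternatives. Called mineralization genes numbered 7, and 4 with DESeq2, without WT replicate 3 and at an adjusted p under 0.01. The cause was not tested. Members without overlap in TPM numbered 5, SP7 included, and 4 where a TPM of at least 1 was asked for.

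Replicate numbers were not used to pair samples. The deviations of same-numbered samples correlated at -0.18, 0.27 and 0.18, and nothing in the labels says that a number marks a shared day or culture. With the replicate number as a block, 7477 genes and the same number of members, 4, were called, and 39 other bone genes.

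SP7, IBSP, BGLAP and DLX5 had 12 counts or fewer per sample and were left out of the fit by the count filter. A sample left as 1 of 2 in its genotype is assumed to vary like the others.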
